A study of Homo sapiens with 84 samples.

Results

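First intron peaks are stretches of accessible chromatin that lie inside the intron that follows the first exon of a transcript. They were taken as the peaks whose genomic class in the deposited annotation was an intron with the number 1, and each was joined to its read counts by peak name. There were 139177 of them among 861439 peaks (16.2%), against 301122 peaks in later introns and 48172 in promoters. The assay was ATAC-seq, where a transposase inserts adapters into accessible DNA, and the cells were established human triple-negative breast cancer cell lines, which lack the estrogen and progesterone receptors and HER2 amplification. The lines SUM-159PT, SUM-149PT, MDA-MB-468 and MDA-MB-231 had 4 treatments: the combination of tazemetostat (an EZH2 inhibitor) with ipatasertib (an AKT inhibitor), tazemetostat alone, ipatasertib alone, and DMSO, the vehicle. The other 5 (HCC1937, HCC1395, HCC1143, BT-549 and BT-20) had the combination and DMSO. Each drug was used at 5 uM in medium with 2% FBS. For MDA-MB-468 the labels place the start of tazemetostat on day -5, passages on days -3 and -1, the addition of ipatasertib on day 0 and the harvest 24 h later, and 50000 cells went into each transposition. Each group held 3 libraries, 78 in all, and no label says whether they came from separate cultures.

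First introns are often long and lie close behind the promoter. They are known to hold enhancers and alternative promoters that are bound by transcription factors of the cell's own lineage. EZH2 is the enzyme of PRC2, a Polycomb complex that places methyl groups on lysine 27 of histone H3 and keeps developmental genes silent in cells that do not use them. AKT is a kinase below the PI3K pathway that, among other targets, keeps FOXO transcription factors out of the nucleus.

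A small share of the peaks covers the start of another transcript of the same or another gene, because the annotation numbers introns for 1 transcript at a time. Of the 139177 peaks, 463 (0.333%) overlapped the promoter window of a RefSeq gene and 151 held the whole window, of which 146 were tested for the combination across lines. Of these 8 rose and 4 fell, or 8.22%, against 6.25% called over all 410603 peaks tested. The sequences of the 4 protein-coding ones that changed are shown because they are the members whose sequence includes a known start of transcription. Each run is the 250 bases before the RefSeq start (GRCh38.p14), 5′ to 3′ on the strand of the gene, in lower case, with capitals for any match to 1 of 5 motifs on either strand. The GC box was searched as GGGCGG, a site of SP and KLF factors. The CCAAT box was searched by those letters, which the factor NF-Y binds. The TATA box was searched as TATAAA, which positions the transcription start. The motif of the AP-1 factors was searched as TGANTCA, with N for any base. The E-box of the MYC factors was searched as CACGTG. No motif contains another.
PDE4D, minus strand, chr5:59587626-59587875: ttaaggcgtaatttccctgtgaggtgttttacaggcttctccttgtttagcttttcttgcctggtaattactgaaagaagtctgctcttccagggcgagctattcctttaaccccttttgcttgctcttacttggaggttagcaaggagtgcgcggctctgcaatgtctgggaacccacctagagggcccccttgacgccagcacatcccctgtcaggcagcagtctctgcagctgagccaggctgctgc
METTL24, minus strand, chr6:110330059-110330308: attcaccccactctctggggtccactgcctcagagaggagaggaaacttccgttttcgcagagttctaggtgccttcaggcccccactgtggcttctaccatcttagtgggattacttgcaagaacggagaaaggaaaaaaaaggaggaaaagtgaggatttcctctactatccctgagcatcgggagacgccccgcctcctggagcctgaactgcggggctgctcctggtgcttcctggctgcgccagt
ANK2, plus strand, chr4:112705372-112705621, in an intron of MIR302CHG: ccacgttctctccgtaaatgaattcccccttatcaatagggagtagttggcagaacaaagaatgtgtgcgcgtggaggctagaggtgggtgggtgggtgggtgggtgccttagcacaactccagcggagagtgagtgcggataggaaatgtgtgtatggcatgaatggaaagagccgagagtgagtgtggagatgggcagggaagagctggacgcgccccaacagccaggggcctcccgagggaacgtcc
ERV3-1, minus strand, chr7:64999443-64999692, in an intron of ERV3-1-ZNF117: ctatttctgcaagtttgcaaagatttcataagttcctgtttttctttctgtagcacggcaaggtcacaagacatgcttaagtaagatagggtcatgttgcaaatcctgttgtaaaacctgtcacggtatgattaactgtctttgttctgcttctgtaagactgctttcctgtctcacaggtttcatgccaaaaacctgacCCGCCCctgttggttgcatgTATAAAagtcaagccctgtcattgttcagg
Among 35116 RefSeq windows, 42.6% held a GC box, 32.0% a CCAAT box, 10.7% a TATA box, 6.57% an AP-1 site and 6.34% an E-box. The first 3 sequences held none of these strings, and that of ERV3-1 held 1 GC box and 1 TATA box. Their GC content was 52.8% (PDE4D), 55.6% (METTL24), 57.2% (ANK2) and 42% (ERV3-1), with 5, 8, 11 and 3 CpG dinucleotides, against a median of 58% and 11 over all windows. The peak at the PDE4D start, where PDE4D is a phosphodiesterase that breaks down cyclic AMP, had 0.0717, 0.494 and 7.80 CPM (counts scaled to library size) as lowest, median and highest of 9 lines with the combination, against 0.0540, 0.227 and 7.07 CPM with DMSO. Its log2 fold of the combination over DMSO was 1.09 ± 0.26 (SE; edgeR adjusted p = 0.0239; higher in 8 of 9 lines). METTL24, a methyltransferase-like gene, and ANK2, which encodes the membrane adaptor ankyrin-B, rose in 9 of 9 lines, with log2 folds of 0.50 ± 0.13 (adjusted p = 0.0316) and 0.48 ± 0.11 (adjusted p = 0.0242). ERV3-1, an endogenous retroviral envelope gene, fell, with a log2 fold of -0.51 ± 0.15 (adjusted p = 0.0451; lower in 8 of 9 lines). The match or lack of a string describes these windows and says nothing of which factor binds them. The PDE4D peak is listed 933836 bp from the TSS of its gene although it holds a RefSeq start, so the distances used here are to the single TSS that the authors' table assigned.

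The first intron peaks were narrow, with a median width of 289 bp, and lay at a median of 38549 bp from the assigned TSS. None lay within 3 kb, since the annotation calls such peaks promoters. Between 3 and 10 kb there were 20844 peaks (15%), between 10 and 30 kb 38445 (27.6%), between 30 and 100 kb 47367 (34.0%) and beyond 100 kb 32521 (23.4%). The intron carried a gene ID for 122453 peaks (88.0%), in 10489 genes of which 7704 were protein-coding and 2580 lncRNA genes. That gene was also the one whose TSS was assigned for 83.05% of all first intron peaks, and for 5.72% another gene was assigned. The number of peaks in a gene was uneven: the median gene held 5, whereas 73 genes held 100 or more. PDE4D held 319, NRG1, an ERBB receptor ligand, 301, HS6ST3, a heparan sulfate sulfotransferase, 252, NALF1, a subunit of the sodium leak channel, 248, and RORA, a nuclear receptor, 229. Libraries held 12292571 to 21459284 counts in peaks, and first intron peaks took 10.2% to 13.0% of them.

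Libraries of the same line and treatment hardly differed. In 76 of 78 pairs the counts of first intron peaks differed by less than sampling noise, with a median ratio of observed to Poisson variance of 0.862. The 3 libraries of a group were therefore summed and counted as 1 sample, and the cell line was the unit of replication. The highest ratio, 1.65, was in a pair that held the third DMSO library of HCC1395, and without that library the highest was 0.986. At the 2255 first intron peaks that, with DMSO, were open in BT-20 alone among the lines other than HCC1395, that library had a mean of 0.571 CPM, against 0.442 and 0.445 CPM in the other DMSO libraries of HCC1395. At the peaks open in only 1 of the other 7 lines it was below both. Calls across lines that it decided and folds within HCC1395 are given with and without it, whereas levels with DMSO include it.

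With DMSO, fewer of the first intron peaks than of the promoter peaks were open, and those that were open were shared by fewer lines. A peak was called open in a line at 1 CPM or more. In at least 1 of 9 lines 51470 first intron peaks (37.0%) were open, against 32.4% of later intron peaks and 68.2% of promoter peaks. Of the open first intron peaks, 15498 (30.1%) were open in 1 line and 5943 (11.5%) in all 9 lines. The same shares were 32.8% and 10.3% for later introns, and 13.1% and 44.2% for promoters. The number open in a line ran between 19151 in BT-549 and 24606 in SUM-159PT, and the number open in that line alone between 790 in HCC1937 and 2756 in SUM-159PT. Peaks nearer to the TSS were more often open: 45.6% between 3 and 10 kb, 37.8% between 10 and 30 kb, 36.6% between 30 and 100 kb, and 31.1% beyond 100 kb.

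The contrast with promoters was also present among peaks above a minimum level. Among peaks with a mean of at least 2 on the log2 CPM scale, the median SD of log2 CPM over the 9 lines was 0.93 for 4683 first intron peaks, 0.93 for 7341 later intron peaks and 0.42 for 13719 promoter peaks. These are descriptions with 1 sample a line and carry no test.

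**Figure D1:**
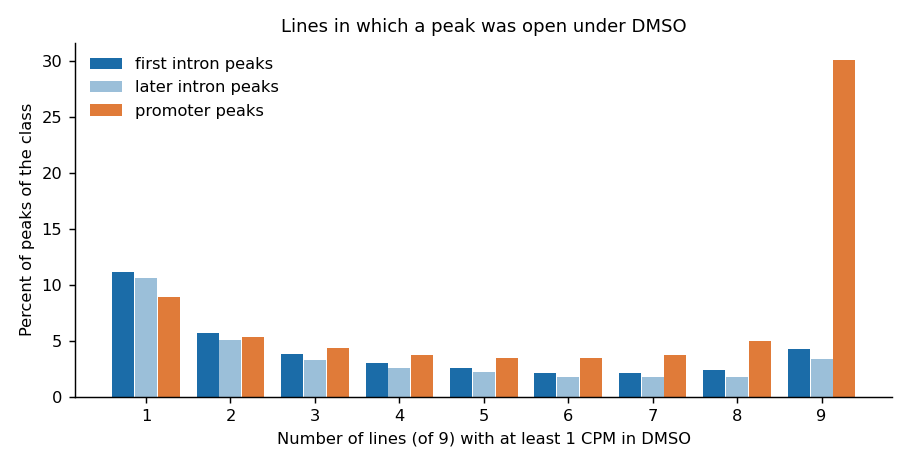
Share of first intron, later intron and promoter peaks (percent of all peaks of the class) by the number of lines, 1 to 9, in which the peak had at least 1 CPM with DMSO. First intron peaks open in 9 lines made up 4.27% of their class and promoter peaks 30.1% of theirs, while the peaks open in no line, which are not drawn, were 63.0% and 31.8%.

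The first intron peaks with the highest mean CPM per kb over the 9 lines were open in all lines, which this choice favours. Per kb, the peak of FAM174B had a mean of 35.7 CPM over the 9 lines with DMSO (lowest 30.8, median 36.5, highest 40.7). The peak of EGFR, the epidermal growth factor receptor that is often high in basal breast cancer, had 21.6, 27.2 and 53.4 CPM per kb as lowest, median and highest. ESYT2, an endoplasmic reticulum tether, had 19.4, 35.1 and 42.3 CPM per kb, and SIN3A, the scaffold of a histone deacetylase complex, had 22.4, 28.8 and 32.5. Among the 417 peaks whose log2 CPM averaged 4 or more, the smallest SD over lines was 0.10 at RALGDS, an exchange factor for the small GTPase Ral, followed by 0.13 at TMC1, 0.15 at FAM174B and 0.18 at PPL, which encodes the desmosomal protein periplakin.

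Other peaks marked 1 line. In MDA-MB-468 a peak in L3MBTL4 had 9.63 CPM, and the next line, BT-20, had 0.381 CPM. In SUM-159PT a peak in LPAR1, a receptor for lysophosphatidic acid, had 9.83 CPM against 0.296 CPM in HCC1395, the next line. RRAS2, a Ras-related GTPase, had 10.8 CPM in HCC1143 and 0.297 CPM in BT-20. ANKS1B had 9.17 CPM in HCC1395 and 0.186 CPM in HCC1937. PTPN3, a tyrosine phosphatase, had 10.8 CPM in SUM-149PT and 0.47 CPM in HCC1395, and MSRA, a methionine sulfoxide reductase, had 8.96 CPM in BT-549 and 0.178 CPM in SUM-159PT. HCC1937 had the weakest such mark: its best peak, in PTK2, which encodes focal adhesion kinase, had 23.8 CPM, and the next line, SUM-149PT, had 3.02 CPM. These peaks were picked for the ratio and are a description.

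With the combination, first intron peaks changed in both directions across the 9 lines, with an excess of rises whose size depended on the settings. Of the 139177 peaks 66288 passed the filter on low counts, and of these 2370 rose (3.58%) and 1625 fell (2.45%) over DMSO at an edgeR adjusted p under 0.05, which is 6.03% in all. Over all 410603 peaks tested, 6.25% were called, 3.52% upward and 2.74% downward, so the shares of first intron peaks were close to the background. Promoters had more calls of both kinds, with 4.42% rising and 5.14% falling, and later introns had 3.17% rising and 2.74% falling. The median log2 fold of first intron peaks was -0.00, against -0.01 over all peaks. Rises made up 59.3% of the calls. That share was 63.6% with no filter, 51.4% under offsets trended with abundance and 50.4% under a stricter filter (minimum count 30). Rises were larger than falls, as they were over all peaks. Of the first intron peaks, 836 of the 2370 risen and 76 of the 1625 fallen changed by at least 2-fold. Over all peaks, 4601 of 14446 risen and 561 of 11231 fallen did. The count of calls depended on the lines: without 1 line it was 2957 at most (BT-20 left out) and 2015 at least (HCC1937 left out), with 2050 without BT-549, 2411 without SUM-159PT, 2490 without HCC1395 and 2576 without MDA-MB-468.

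The 10 named rises had log2 folds between 0.96 and 1.10. They were the largest among changed first intron peaks of protein-coding genes that moved the same way in at least 8 lines and averaged at least 2 on the log2 CPM scale. KCNJ16, a subunit of inwardly rectifying potassium channels, had 0.239, 5.57 and 12.6 CPM as lowest, median and highest with the combination, against 0.219, 2.93 and 5.53 CPM with DMSO, at chr17:70089451-70090541. Its log2 fold was 1.06 ± 0.13 (adjusted p = 0.0029), between 0.11 in BT-549 and 1.56 in MDA-MB-231, and it was positive in 9 of 9 lines. The ranges of the treatments overlapped across lines, and within each line the combination was above DMSO.

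CNPY1, a member of the canopy family known from FGF signalling in zebrafish, had 2.84, 4.54 and 10.9 CPM with the combination, against 1.12, 2.06 and 10.6 CPM with DMSO (log2 fold 1.04 ± 0.19, adjusted p = 0.0101). The fold was 0.03 in BT-20 and 2.18 in MDA-MB-468. BMP6, a bone morphogenetic protein ligand, had 2.58, 5.02 and 10.8 CPM with the combination, against 0.739, 2.33 and 7.54 CPM with DMSO (log2 fold 1.04 ± 0.22, adjusted p = 0.0148), with its highest fold, 3.03, in SUM-159PT. PXDNL, a peroxidasin-like protein, PDE10A, a cyclic nucleotide phosphodiesterase, and PLCL2, a phospholipase C-like protein, rose by log2 folds of 1.05 ± 0.21, 0.99 ± 0.21 and 0.96 ± 0.19 (adjusted p = 0.0131, 0.0166 and 0.0135). The gene assigned to the PLCL2 peak was DAZL, whose TSS is listed at -196959 bp.

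The 3 largest averages had the widest spread. KHDRBS3, an RNA-binding splicing regulator, had 0.417, 6.02 and 14.7 CPM with the combination, against 0.566, 2.47 and 12.8 CPM with DMSO. Its log2 fold of 1.10 ± 0.28 (adjusted p = 0.0349) ran between -0.53 in HCC1143 and 3.51 in MDA-MB-468. MECOM, a zinc finger transcription factor of blood stem cells, had 1.31, 9.56 and 18.4 CPM with the combination, against 0.961, 3.13 and 8.30 CPM with DMSO (log2 fold 1.09 ± 0.28, adjusted p = 0.0367), with 3.79 in MDA-MB-468. FGF14, an intracellular partner of sodium channels, had a log2 fold of 1.06 ± 0.27 (adjusted p = 0.0337). All 3 lost the call when SUM-159PT was left out (KHDRBS3 peak, adjusted p = 0.10; MECOM peak, 0.108; FGF14 peak, 0.0518), and when some other single lines were.

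The 10 named falls were smaller, with log2 folds between -0.87 and -0.70, and 8 of them were negative in 9 of 9 lines. Their size still varied between lines, with folds between -2.92 and -0.19 at SIPA1L3, between -1.94 and -0.17 at RPRD1B and between -1.79 and 0.07 at TRIM35. CYFIP1, a subunit of the actin-regulating WAVE complex, had 0.520, 2.53 and 7.58 CPM with the combination, against 0.953, 5.56 and 13.1 CPM with DMSO, at chr15:22968130-22969122 (log2 fold -0.87 ± 0.13, adjusted p = 0.00522). It fell in each line, most in SUM-159PT (-1.69) and least in HCC1937 (-0.35). ZDHHC5, a palmitoyltransferase, had 0.662, 2.21 and 17.2 CPM with the combination, against 1.09, 3.69 and 19.9 CPM with DMSO (log2 fold -0.82 ± 0.15, adjusted p = 0.00891). MIDEAS, a subunit of a mitotic histone deacetylase complex, had 0.312, 4.11 and 5.55 CPM with the combination, against 0.648, 6.99 and 8.89 CPM with DMSO (log2 fold -0.70 ± 0.11, adjusted p = 0.00552), and its folds lay between -0.98 and -0.35.

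Further falls were at MISP, an actin-binding protein of spindle positioning (-0.73 ± 0.13), SPIN1, a reader of methylated histone H3 (-0.73 ± 0.14), TECR, a reductase of very long chain fatty acid synthesis (-0.71 ± 0.15), RPRD1B, which binds the tail of RNA polymerase II (-0.70 ± 0.14), and the phosphatase PPP5C (-0.73 ± 0.17), with adjusted p of 0.00763, 0.0118, 0.0149, 0.0130 and 0.0228. TRIM35, an E3 ubiquitin ligase, fell by 0.80 on the log2 scale (SE 0.20, adjusted p = 0.0282), a call lost without SUM-159PT (TRIM35 peak, adjusted p = 0.0689) or HCC1395. SIPA1L3, a regulator of the small GTPase Rap, had a log2 fold of -2.92 in HCC1395 (-1.17 without the third DMSO library) and of -0.91 or higher elsewhere, and its average of -0.72 ± 0.19 (adjusted p = 0.0379) was -0.57 without that library (adjusted p = 0.0160).

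**Figure D2:**
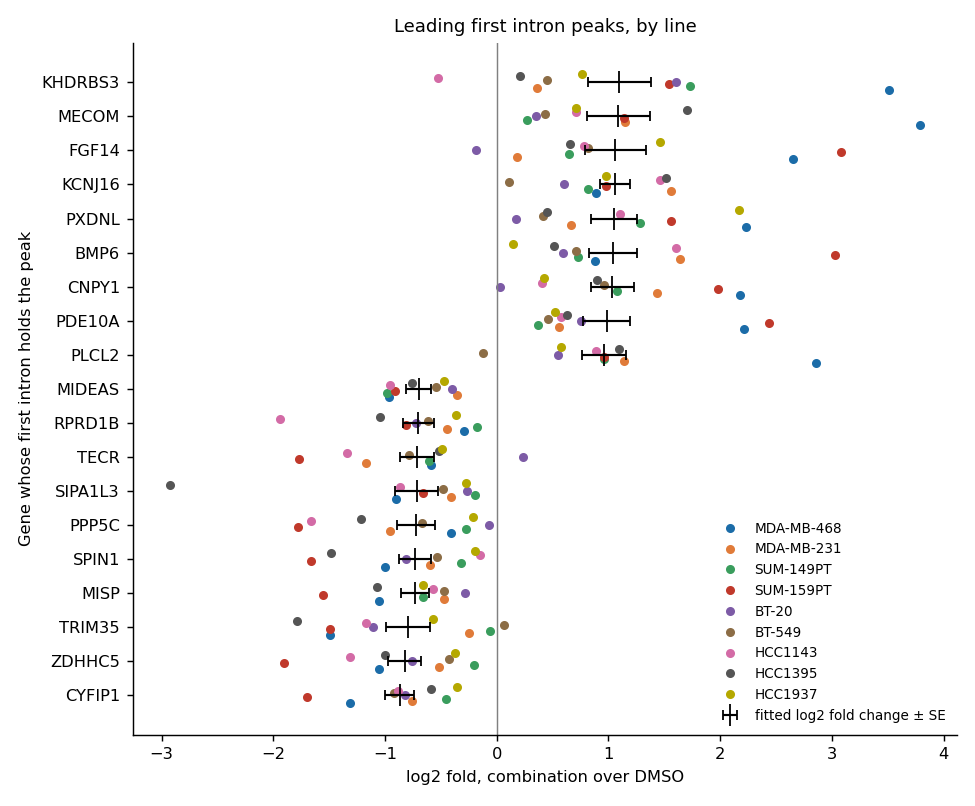
Log2 fold of the combination over DMSO in each of 9 lines (points) for 9 of the 10 named rises and the 10 named falls among first intron peaks, with the average of the edgeR fit and its SE. The points of KCNJ16 lie between 0.11 and 1.56 and those of CYFIP1 between -1.69 and -0.35, whereas those of MECOM reach 3.79 in MDA-MB-468.

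Distance from the TSS divided the responses. Beyond 100 kb, 5.72% of tested first intron peaks rose and 1.11% fell with the combination across lines. Between 3 and 10 kb 3.44% rose and 3.24% fell, between 10 and 30 kb 2.61% and 3.19%, and between 30 and 100 kb 3.25% and 2.15%. Under offsets trended with abundance, an alternative chosen after seeing the data, the far peaks had 5.34% rising and 1.44% falling, and the near ones 3.18% and 4.15%. At mean log2 CPM of 1 and over, the shares beyond 100 kb were 5.99% rising and 1.94% falling, and those between 3 and 10 kb 3.76% and 5.42%. Later introns had the same order, with 3.97% rising and 1.29% falling beyond 100 kb and 2.23% and 5.56% between 3 and 10 kb. The median log2 fold of the far peaks minus that of the near peaks was positive in 8 of 9 lines, with 0.52 in MDA-MB-468 as the highest, 0.09 as the median and -0.02 in HCC1143 as the lowest. Peaks in one gene share a position, so these shares are descriptions.

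**Figure D3:**
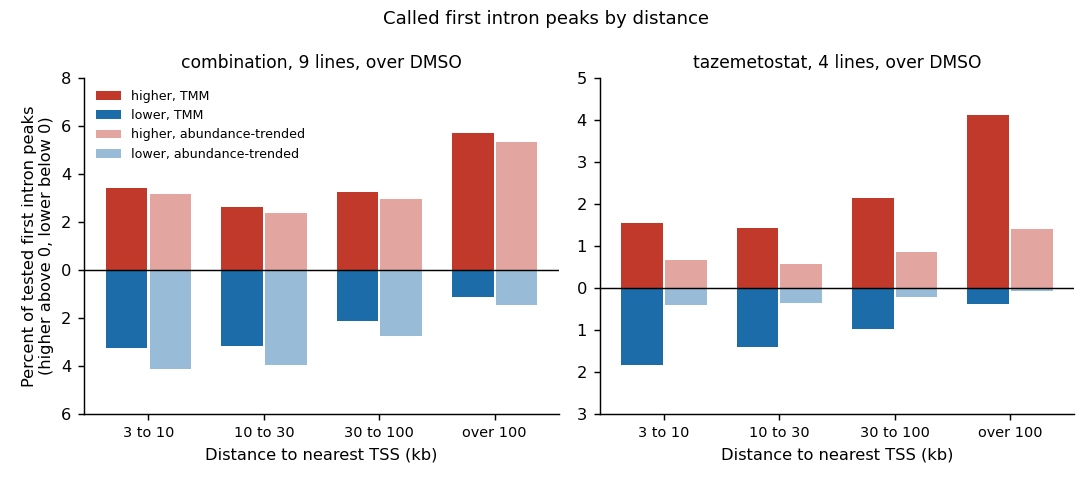
Percent of tested first intron peaks that rose or fell with the combination across 9 lines, by distance from the assigned TSS in kb. The risen share is 5.72% beyond 100 kb and 3.44% between 3 and 10 kb, and the fallen share is 1.11% and 3.24%.

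The shares also differed by level and host gene. Among first intron peaks with a mean log2 CPM of 3 and over, 1.92% rose and 6.75% fell, whereas below 0 the shares were 3.28% and 1.69%. The lines did not share this lean: the median log2 fold of the high peaks minus that of the low peaks was negative in 5 of 9 lines, with -0.19 in MDA-MB-468 as the lowest, and positive in 4, with 0.10 in SUM-149PT as the highest. In lncRNA hosts 3.96% rose and 1.86% fell, against 3.44% and 2.71% in protein-coding hosts. These shares count peaks that passed the filter on low counts. No shares by level or host gene were computed over all peaks, so whether these leans are particular to first introns was not tested.

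Changes within a gene mostly went one way. Of 9040 genes with a tested first intron peak, 933 had rises only, 979 falls only and 29 both. Among the 673 genes with at least 2 changed peaks, 644 had all of them in 1 direction. RYR2, the calcium release channel of heart muscle, had 28 of 64 tested peaks risen and none fallen, KCND2, a potassium channel of neurons and heart, 23 of 50, PRDM16, a zinc finger factor of brown fat and blood stem cells, 20 of 64, RORA 19 of 58, and MYOM2, a protein of the sarcomeric M-band, 14 of 18. Falls gathered in the lncRNA genes LINC00673 (15 of 64) and PVT1 (13 of 84), in CTBP2, a transcriptional corepressor (11 of 35), SEPTIN9 (11 of 45), YWHAZ, a 14-3-3 protein (11 of 17), CD44, a hyaluronan receptor of stem-like and mesenchymal breast cancer cells (9 of 20), and EGFR (6 of 60). Genes with many peaks have more chances to be listed, and neighbouring peaks of 1 gene are not independent.

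The response differed in size between lines, and each line gave 1 sample, so the values within a line carry no test. MDA-MB-468 and SUM-159PT changed most. With the combination, 18.7% of the 28242 first intron peaks that were kept in MDA-MB-468 rose and 11.5% fell by at least 2-fold, against 27.5% of all its peaks in either direction. In SUM-159PT 19.2% rose and 8.68% fell, against 24.3% of all peaks. The other lines had 7.63% and 3.09% (HCC1143, with 9.44% over all peaks), 5.70% and 3.62% (HCC1395, 9.02%; without the third DMSO library 5.53% and 3.94%, with 9.21% over all peaks), 4.54% and 0.762% (BT-549, 5.01%), 4.17% and 1.35% (MDA-MB-231, 4.71%), 3.69% and 1.44% (HCC1937, 4.5%), 3.47% and 1.43% (SUM-149PT, 4.58%), and 3.24% and 1.62% (BT-20, 4.74%). The shares of first intron peaks were therefore near or slightly above those over all peaks of the same line. The 2-fold cuts were set around 0, which was not the centre of the folds in each line. The median log2 fold of first intron peaks was -0.32 in MDA-MB-468 and -0.17 in SUM-159PT, beside -0.30 and -0.15 over all peaks. In the other lines the median of first intron peaks lay between -0.03 (MDA-MB-231) and 0.07 (HCC1143).

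The single agents split in these lines. With tazemetostat 18.3% of first intron peaks rose and 11.5% fell by 2-fold in MDA-MB-468 (26.5% over all peaks), and 17.2% and 9.5% in SUM-159PT (22.8% over all peaks). In MDA-MB-231 4.07% rose and 0.695% fell (4.23%), and in SUM-149PT 2.21% and 0.352% (2.52%). The median log2 fold of first intron peaks with tazemetostat was -0.47 in MDA-MB-468, -0.25 in SUM-159PT, -0.03 in MDA-MB-231 and -0.02 in SUM-149PT. Over all peaks the medians were -0.45, -0.23, -0.07 and -0.04 in the same order. With ipatasertib the shares were 0.745% and 0.336% in MDA-MB-468 (1.03% over all peaks), 0.231% and 0.558% in SUM-149PT (0.699%), 0.150% and 0.121% in SUM-159PT (0.267%), and 0.0596% and 0.134% in MDA-MB-231 (0.144%).

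**Figure D4:**
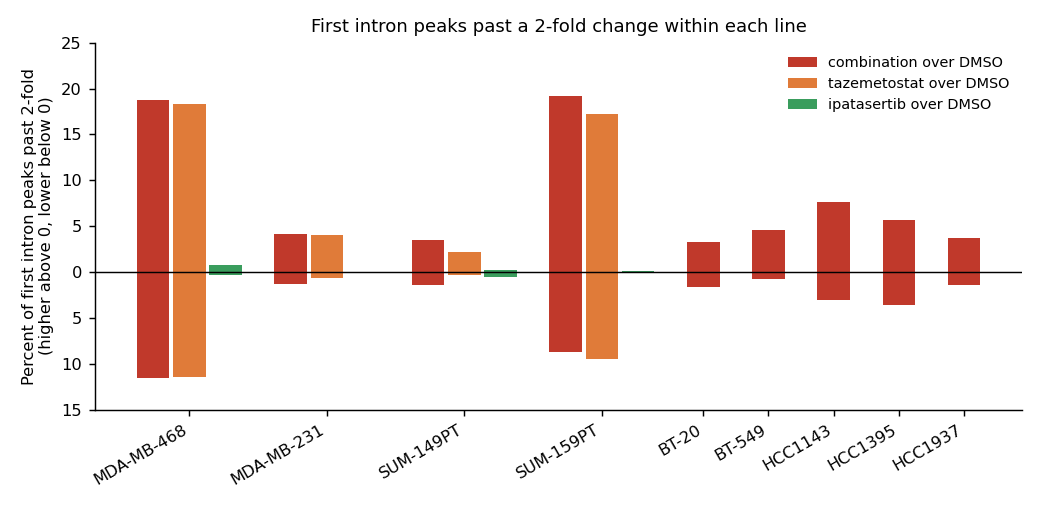
Percent of first intron peaks whose summed counts rose or fell by at least 2-fold within each line, by treatment over DMSO. The combination and tazemetostat give 18.7% and 18.3% rising in MDA-MB-468, and ipatasertib gives 0.745% there.

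Within a line the largest folds were checked against the counts of each library. In MDA-MB-468 a peak in ATP1B3, a subunit of the sodium-potassium pump, had 14, 23 and 6 counts in the 3 combination libraries, against 182, 155 and 135 with DMSO, a log2 fold of -3.56. In the same line a peak in TENM3, a teneurin adhesion protein of neurons, had 258, 271 and 289 counts with tazemetostat, against 13, 8 and 12 with DMSO (log2 fold 4.10). In SUM-159PT a second peak of PDE10A had 134, 142 and 130 counts with the combination and 124, 142 and 163 with tazemetostat, against 6, 6 and 8 with DMSO. These peaks were picked for the size of their fold, so the counts describe them and test nothing. PDE10A, at another peak, also held the largest rise with the combination in BT-20 (log2 fold 1.77).

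In SUM-159PT a peak in CLIP2, a microtubule linker, had 22, 23 and 18 counts with the combination, against 100, 113 and 129 with DMSO (log2 fold -2.60). In MDA-MB-231 a peak in CD44 had 142, 103 and 88 counts with the combination, against 342, 294 and 230 with DMSO (log2 fold -1.49). In HCC1395 a peak in IGF1R, the receptor of insulin-like growth factors, had 90, 104 and 107 counts with the combination, against 20, 22 and 21 with DMSO (log2 fold 2.39). The largest fall of HCC1395, at EGFR, rested on 1 library: the counts were 44, 31 and 28 with the combination, against 43, 52 and 270 with DMSO, and the log2 fold of EGFR was -1.63 with that library and -0.32 without it.

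Ipatasertib folds in a line were smaller. In MDA-MB-468 a peak in RIPOR2 had 137, 124 and 113 counts with ipatasertib, against 54, 42 and 48 with DMSO (log2 fold 1.48). In SUM-149PT a peak in PPM1L, a protein phosphatase, had 55, 43 and 46 counts with ipatasertib, against 114, 133 and 143 with DMSO (log2 fold -1.20). In MDA-MB-231 a peak in CD44 had 42, 60 and 35 counts with ipatasertib, against 109, 99 and 80 with DMSO (log2 fold -1.06).

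Across the 4 lines with all treatments, tazemetostat changed first intron peaks and ipatasertib gave no call. Of 92393 first intron peaks tested, 2095 rose and 1027 fell with tazemetostat over DMSO at an edgeR adjusted p under 0.05, or 3.38% in all. Over all 565986 peaks tested the shares were 4.37% called, 2.14% risen and 2.23% fallen. Promoters had the opposite balance, with 696 rises and 6905 falls among 41816. With the combination in the same 4 lines 1742 first intron peaks rose and 782 fell, against 2.67% called over all peaks, 1.78% risen and 0.888% fallen. The comparisons share their DMSO samples. Of the tazemetostat calls at first introns 67.1% were rises. With scaling by total counts that share was 89.0% (2817 rises and 349 falls), where the median of all peaks stood at 0.14 in place of -0.03. With abundance-trended offsets it was 77.1% (798 and 237). It was lower with a minimum count of 30, at 60.5% (1697 and 1110), and with DESeq2, at 54.8% (2163 and 1781). The scaling factors of MDA-MB-468 were 1.08 with the combination, 1.19 with tazemetostat, 0.839 with ipatasertib and 0.920 with DMSO, and the part of this gap in the balance was not tested. The count rested on single lines: 35 peaks were called without SUM-159PT, 239 without MDA-MB-468 and 478 without MDA-MB-231 for tazemetostat, and 140, 243 and 1273 for the combination in the 4 lines.

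For ipatasertib over DMSO, for the combination over tazemetostat and for a departure from additivity, 0 of the 92393 first intron peaks passed, and 0% of all peaks. At an unadjusted p under 0.05 there were 1636, 1675 and 630 first intron peaks in the 3 comparisons. DESeq2 also called 0 in each, with 1156, 1125 and 339 at an unadjusted p under 0.05.

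NPVF was 1 of the 4 named rises with tazemetostat. The peak lies in an intron of a transcript with no gene ID, at -227763 bp from the TSS of NPVF, a neuropeptide precursor, at chr7:25454280-25456249. In MDA-MB-468, then MDA-MB-231, then SUM-149PT, then SUM-159PT, it had 11.2, 8.42, 2.48 and 13.2 CPM with the combination, 12.8, 7.67, 3.33 and 11.9 CPM with tazemetostat, 2.51, 3.64, 1.30 and 6.47 CPM with ipatasertib, and 2.98, 3.88, 1.55 and 5.96 CPM with DMSO. Named peaks had to move the same way in each of the 4 lines, so the rise with tazemetostat in each line was selected for. Every combination value was also above the DMSO value of its line, and every ipatasertib value was near it. The log2 fold of tazemetostat over DMSO was 1.31 ± 0.20 (adjusted p = 0.00848), that of the combination 1.23 ± 0.20 (adjusted p = 0.00756) and that of ipatasertib -0.10 ± 0.21 (adjusted p = 1). The tazemetostat fold of NPVF was 2.10 in MDA-MB-468 and 1.10 in the next line.

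KHDRBS3 had 6.07, 5.51, 5.77 and 10.6 CPM with the combination in the same order of lines, 6.25, 6.23, 6.02 and 11.8 CPM with tazemetostat, 0.661, 4.22, 1.42 and 3.84 CPM with ipatasertib, and 0.525, 4.35, 1.73 and 3.77 CPM with DMSO. Its log2 fold with tazemetostat was 1.76 ± 0.42 (adjusted p = 0.0369), a call lost without SUM-159PT (KHDRBS3 peak, adjusted p = 0.224), MDA-MB-468 or SUM-149PT. ENTREP2, a transmembrane protein of endosomes, and PLCL2 rose with tazemetostat by log2 folds of 1.41 ± 0.28 and 1.32 ± 0.33 (adjusted p = 0.0202 and 0.0390), and both lost the call without SUM-159PT (ENTREP2 peak, adjusted p = 0.117; PLCL2 peak, 0.179). CNPY1 had 7.24, 4.55, 5.22 and 3.72 CPM with tazemetostat, against 1.91, 1.64, 2.85 and 1.0 CPM with DMSO, a log2 fold of 1.52 ± 0.18 (adjusted p = 0.00244).

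Falls with tazemetostat were led by UBAP1, a subunit of the ESCRT-I sorting complex (-1.04 ± 0.26, adjusted p = 0.0345), TRIM26, an E3 ubiquitin ligase (-1.03 ± 0.20, adjusted p = 0.0174), RAB11FIP5, an effector of Rab11 (-0.96 ± 0.24, adjusted p = 0.0374) and SPIN1 (-0.96 ± 0.25, adjusted p = 0.0402). The peak of TRIM26 had 13.5, 1.27, 9.88 and 0.553 CPM with the combination, 10.1, 1.2, 8.97 and 0.539 CPM with tazemetostat, 26.2, 1.52, 13.5 and 1.59 CPM with ipatasertib, and 23.0, 1.89, 12.8 and 2.08 CPM with DMSO. It was lower with tazemetostat than with DMSO in each of the 4 lines, which a named peak had to be. All 4 calls were lost without SUM-159PT (UBAP1 peak, adjusted p = 0.238; TRIM26 peak, 0.115; RAB11FIP5 peak, 0.176; SPIN1 peak, 0.240) and without MDA-MB-468.

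The far peaks again leaned upward with tazemetostat. Beyond 100 kb 4.12% rose and 0.391% fell, against 1.55% and 1.83% between 3 and 10 kb. With abundance-trended offsets these shares were 1.42% and 0.0711% beyond 100 kb, and 0.656% and 0.409% between 3 and 10 kb.

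First intron peaks held a slightly larger part of all counts after treatment with tazemetostat. Their share was 12.5% with tazemetostat, against 12.1% with DMSO, a mean difference of 0.395 ± 0.133 percentage points (SD, n = 4 lines) that was positive in 4 of 4 lines, while the promoter share changed by -2.87 points. Later introns gained more in each of the 4 lines, with a mean difference of 1.33 ± 0.78 points (SD, n = 4). With the combination the share was 12.1%, against 11.8% with DMSO, a difference of 0.203 ± 0.226 points (SD, n = 9) that was positive in 7 of 9 lines and no larger than its spread, beside -1.15 points at promoters. With ipatasertib the difference was -0.040 ± 0.103 points (SD, n = 4).

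When the first intron peaks of a gene were summed, rises and falls were close in number. The gene by class table had 67702 tested rows, of which 14.7% were called, 6.43% upward and 8.24% downward. Of 10867 first intron rows 679 rose (6.25%) and 741 fell (6.82%), with a median log2 fold of 0.02 against -0.01 over all rows. With total-count scaling 594 rose and 1023 fell, so that rises made up 36.7% of the calls in place of 47.8%. The count without 1 line was between 640 (HCC1937 left out) and 1166 (BT-20 left out), with 702 without BT-549, 789 without HCC1395, 894 without SUM-149PT and 902 without SUM-159PT.

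Of 64 PRC2 developmental targets, 21 had a tested first intron sum: 5 rose and 0 fell, with a median log2 fold of 0.46. The risen share was 23.8%, beside 6.25% of all first intron sums. At the promoters of the same list 12 of 56 tested sums rose and 0 fell (median 0.28), or 21.4% risen beside 7.45% of all promoter sums. GATA4, a transcription factor of heart and gut endoderm with 16 first intron peaks, had 1.64, 7.13 and 22.0 CPM as lowest, median and highest with the combination, against 1.19, 2.12 and 8.35 CPM with DMSO. It rose in 9 of 9 lines, with a log2 fold of 1.38 ± 0.24 (edgeR adjusted p = 0.0132). OTX2, a homeobox factor of the forebrain, had 0.436, 0.777 and 4.28 CPM with the combination, against 0.317, 0.481 and 0.959 CPM with DMSO (log2 fold 1.11 ± 0.28, adjusted p = 0.0291; the call was lost in 3 of 9 fits without 1 line, OTX2 first intron sum without SUM-149PT, adjusted p = 0.0541). EN2, a homeobox factor of the midbrain, and BCL11B, a factor of T cells and skin, rose by 0.58 ± 0.17 and 0.52 ± 0.14 (adjusted p = 0.0407 and 0.0348), and each lost the call in 7 of 9 fits that left out 1 line (highest adjusted p, both without BT-549, 0.0866 for the EN2 first intron sum and 0.0759 for the BCL11B first intron sum).

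Receptor kinases and ligands had 3 rises and 0 falls among 27 tested sums, with a median of 0.03. The risen share was 11.1% here and 13.6% for the FOXO targets, beside 6.25% of all first intron sums. No list was tested as a set. FLT3, a receptor of blood progenitors, rose by 0.67 ± 0.14 (adjusted p = 0.0176), FLT1, a VEGF receptor, by 0.60 ± 0.14 (adjusted p = 0.0241) and ERBB4, a receptor of neuregulins with 126 first intron peaks, by 0.33 ± 0.07 (adjusted p = 0.0161). FLT1 is also the 1 riser among 12 endothelial markers, whose median was -0.04. The FOXO targets had 3 rises and 0 falls among 22 (median -0.01): FOXO1 by 0.31 ± 0.09 (adjusted p = 0.0365; the FOXO1 first intron sum lost its call in 6 of 9 fits without 1 line, with an adjusted p of up to 0.0832), SESN1 and SGK1. SESN1 and SGK1, a stress-induced sestrin and a kinase, were at adjusted p of 0.0493 and 0.0465 and were not called without the third DMSO library of HCC1395 (SESN1 first intron sum 0.0655, SGK1 first intron sum 0.0662), nor in 8 and 9 of the 9 fits without 1 line.

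The following lists had 1 or 2 rises each, beside 6.25% of all first intron sums that rose and 6.82% that fell. The YAP/TEAD targets had 2 rises among 15 (median -0.01), led by DLC1 with 0.65 ± 0.13 (adjusted p = 0.0171), and CCN2 lost its call without the third DMSO library of HCC1395 (CCN2 first intron sum, adjusted p = 0.0787) and in 7 of 9 fits without 1 line. Of 12 AP-1 and ERK feedback genes FOSL2, an AP-1 subunit, fell by 0.50 on the log2 scale (SE 0.14, adjusted p = 0.0404), and ATF3 rose by 0.19 and was not called without that library (ATF3 first intron sum, adjusted p = 0.0565) or in 7 of 9 fits without 1 line, with a median of -0.09. Of 8 cell cycle genes CCND2, a D-type cyclin, rose by 0.87 ± 0.18 (adjusted p = 0.0173) and RRM1, a ribonucleotide reductase subunit, had a log2 fold of -0.71 ± 0.19 (adjusted p = 0.0331), with a median of -0.04. The RRM1 sum lay below 1 CPM in each line. Its lowest, median and highest values were 0.112, 0.242 and 0.456 CPM with the combination, against 0.185, 0.372 and 0.745 CPM with DMSO. Of 12 genes of mammary involution and gp130-STAT3, LIFR, a cytokine receptor, rose by 0.27 ± 0.08 (adjusted p = 0.0393), and the median was 0.03. The calls of FOSL2, RRM1 and LIFR were each lost in 7 of 9 fits without 1 line (highest adjusted p 0.0733 for the FOSL2 first intron sum, 0.0617 for the RRM1 first intron sum and 0.0923 for the LIFR first intron sum).

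Other lists had 1 or 2 falls and 0 rises each, beside 6.82% of all first intron sums that fell. Of 8 housekeeping genes 2 fell and 0 rose (median -0.40): YWHAZ had 9.81, 26.4 and 50.6 CPM with the combination, against 13.5, 44.9 and 81.6 CPM with DMSO (log2 fold -0.49 ± 0.11, adjusted p = 0.0227), and TFRC, the transferrin receptor, had a log2 fold of -0.69 ± 0.16 (adjusted p = 0.0233; lower in 7 of 9 lines) and passed the filter on low counts in 5 of 9 fits without 1 line. The TFRC sum was low, with 0.136, 0.179 and 1.13 CPM with the combination, against 0.139, 0.281 and 2.20 CPM with DMSO. Of 12 SREBP targets 2 fell (median -0.19): SREBF2, the regulator of sterol synthesis, by 0.27 and HMGCS1, an enzyme of that pathway, by 0.49 (adjusted p = 0.0461 and 0.0478). Of 17 drug targets and pathway genes GSK3B, a kinase that AKT phosphorylates, fell by 0.40 (SE 0.12, adjusted p = 0.0452; median -0.20). The last 3 calls were lost in 7 (SREBF2), 8 (HMGCS1) and 8 (GSK3B) of 9 fits without 1 line (without HCC1937, adjusted p of 0.0790 for the SREBF2 first intron sum, 0.0931 for the HMGCS1 first intron sum and 0.0805 for the GSK3B first intron sum).

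Of each list of lineage markers 1 sum passed. Of 15 mesenchymal markers 1 fell, CD44, which had 53.7, 95.6 and 211 CPM with the combination, against 63.4, 124 and 259 CPM with DMSO (log2 fold -0.28 ± 0.05, adjusted p = 0.0144; lower in 9 of 9 lines), and the median was 0.12. Of 19 luminal markers CLDN4, a tight junction claudin, fell by 0.20 (SE 0.05, adjusted p = 0.0332; median 0.07), and of 18 basal markers ITGA6, the integrin that binds laminin, fell by 0.18 (SE 0.05, adjusted p = 0.0365; median 0.03). CLDN4 lost the call in 4 and ITGA6 in 7 of 9 fits without 1 line (without HCC1937, CLDN4 first intron sum, adjusted p = 0.0623; ITGA6 first intron sum, 0.0766). Of 4 immune markers (median -0.02) and 5 fibroblast and adipocyte markers (median 0.11) 0 passed. IKZF1, a lymphoid factor, had a log2 fold of 0.69 ± 0.25 (adjusted p = 0.0839) and PDPN, podoplanin, one of 0.70 ± 0.27 (adjusted p = 0.0897); DESeq2 called both (IKZF1 first intron sum 0.0478, PDPN first intron sum 0.0353).

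The first intron and the promoter of a gene could respond by different amounts. The log2 fold of the first intron sum minus that of the promoter sum was tested with limma over the 9 lines in 8649 genes. It differed in 329 genes (3.8%), with the intron above the promoter in 101 (1.17%) and below it in 228 (2.64%), and 2067 genes had an unadjusted p under 0.05. The median difference was -0.04. The number called fell to between 96 (HCC1937 left out) and 260 (MDA-MB-231 left out) without 1 line.

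CNPY1 had the largest positive difference among the named genes. Its 17 first intron peaks together had 13.2, 17.8 and 27.3 CPM with the combination, against 5.12, 7.92 and 15.8 CPM with DMSO, and its promoter had 10.3, 15.3 and 31.6 CPM with the combination, against 12.3, 17.7 and 31.4 CPM with DMSO. The difference of the responses was 1.24 ± 0.23 (limma adjusted p = 0.0162; positive in 9 of 9 lines), between 0.10 in BT-20 and 2.85 in MDA-MB-468. ADGRV1, an adhesion receptor of hair cells and photoreceptors, had a difference of 0.63 ± 0.13 (adjusted p = 0.0223; 9 of 9 lines; ADGRV1 first intron minus promoter without HCC1395, adjusted p = 0.0506). SLC2A13, an inositol transporter, and GAS2, a growth arrest protein, had differences of 0.60 ± 0.16 and 0.56 ± 0.14 (adjusted p = 0.0430 and 0.0398; 8 of 9 lines each) that were not called in most fits without 1 line (highest adjusted p 0.0774 without HCC1937 for SLC2A13 first intron minus promoter, and 0.0776 without SUM-159PT for GAS2 first intron minus promoter).

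In the other direction KCNQ3, a subunit of the neuronal M-channel with 165 first intron peaks, had a first intron sum of 29.0, 45.2 and 128 CPM with the combination, against 16.6, 53.7 and 121 CPM with DMSO, while its promoter had 3.19, 13.8 and 24.9 CPM with the combination, against 1.37, 7.02 and 18.4 CPM with DMSO. The difference was -0.70 ± 0.10 (adjusted p = 0.00524; negative in 9 of 9 lines). SPIN1 had the reverse layout: its first introns fell by 0.71 (SE 0.11, edgeR adjusted p = 0.0126), its promoter had a log2 fold of -0.07 ± 0.04 (adjusted p = 0.258), and the difference was -0.65 ± 0.11 (adjusted p = 0.00806). FXYD6-FXYD2, a readthrough of regulators of the sodium pump, and PRRX1, a mesenchymal homeobox factor, had differences of -0.66 ± 0.13 and -0.63 ± 0.12 (adjusted p = 0.0151 and 0.0148), negative in 9 of 9 lines.

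**Figure D5:**
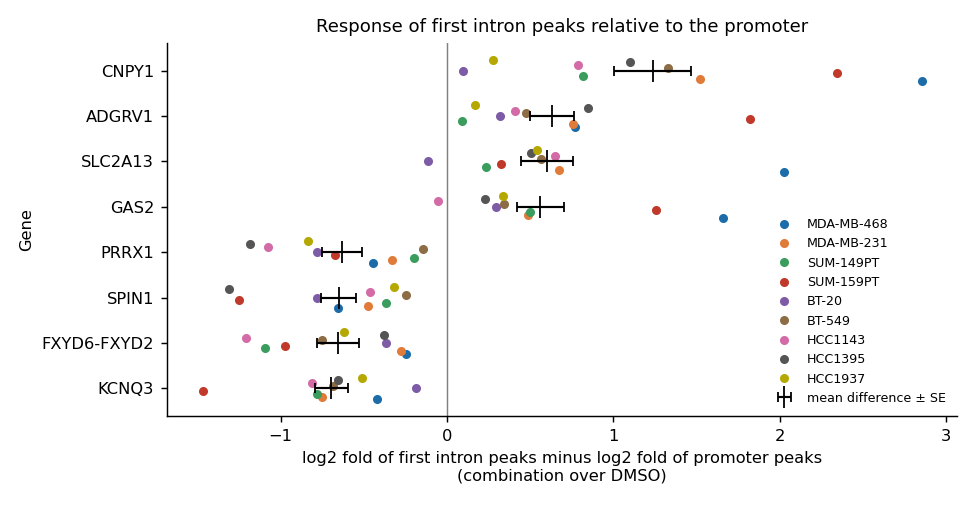
Difference of the responses, the log2 fold of the combination over DMSO at first introns minus that at promoters, in each of 9 lines for the 4 largest positive and 4 largest negative named genes, with the limma mean and its SE. CNPY1 lies between 0.10 and 2.85 and KCNQ3 between -1.47 and -0.18.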

How the data were processed

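The authors deposited 1 table of read counts per peak, whole numbers with no normalisation, for 78 libraries, and a table with the position, class, assigned gene and TSS distance of each peak. Per the submitters' processing notes, peaks came from MACS2 and counts from featureCounts on hg38; the sources used here do not give versions, the aligner, or whether duplicates were removed and read ends shifted for Tn5. Reads were counted over whole peaks, so a shift of a few bases would hardly move a count, while duplicate removal would lower high ones. Coordinates are printed as deposited. The 6 samples of HCC1806 were not analysed here, and 0 columns of the count table were left unused. A peak was given to the gene whose intron holds it where the annotation has that gene's ID, and otherwise to its assigned gene; 25573 of 25871 assigned gene IDs (98.8%) matched the RefSeq table, which gave the gene types.

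Since replicate libraries differed by less than sampling noise, the 3 libraries of a line and treatment were summed to 1 sample, and p-values measure the spread between lines. All peaks kept by filterByExpr (minimum count 10) were tested with the quasi-likelihood test of edgeR 4.0.16 (TMM scaling, robust, line as block; R 4.3.3), with Benjamini-Hochberg adjustment over all peaks and a threshold of 0.05. CPM values use the TMM factors of their own fit, so they differ slightly between the fits of 9 and of 4 lines. SE is the log2 fold over the square root of F. Sums per gene and class were tested in the same way, and differences between the first intron and promoter folds (prior count 2) with limma 3.58.1 (trend, robust). Folds within a line and levels with DMSO are descriptions; within-line CPM had 0.05 added before taking log2. Every peak, sum or difference named as changed met the threshold. Outside the gene lists and the 4 peaks shown by sequence they also had a mean log2 CPM of 2; those across lines moved the same way in at least 8 of 9 lines (4 of 4) and were the 10 largest each way (4 for tazemetostat and for the intron and promoter differences), 1 per gene and protein-coding. From each of 16 lists up to 4 passing members were named, whatever their level or number of lines. Not every name chosen is printed, and 1 of the 10 rises is not reported here. Genes listed for their number of changed peaks were chosen after their values were seen. Members, lists and rules were chosen with earlier results of these data known. Alternatives were DESeq2 1.42.0, other scalings and filters, single libraries, a replicate block, other openness thresholds, and leaving out lines or replicates; those that leave out the third DMSO library of HCC1395 from gene sums, differences and folds within that line, and the distance shares under trended offsets, were added after seeing the data. The scripts were tested on simulated data.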

Additional observations from a re-analysis of the deposited data

Results flagged for a closer look

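Of 66 sets of values checked, each over 4 or 9 lines, 10 had 1 line far from the others, where chance gives about 1 in 20.

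MDA-MB-468 was the line apart in 5 of them. The MECOM peak had a log2 fold of the combination over DMSO of 3.79 there, and 1.70 in the next line. The PLCL2 peak had 2.86 with the combination there, with 1.14 in the next line, and 2.96 with tazemetostat, with 1.16 in the next line. The NPVF peak had 2.10 with tazemetostat in MDA-MB-468 and 1.10 in the next line. The first intron minus promoter response of SLC2A13 was 2.03 in MDA-MB-468 and 0.67 in the next line.

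SUM-159PT was apart in 3 sets. The first intron minus promoter response of ADGRV1 was 1.82 there, with 0.85 next, and that of KCNQ3 was -1.47, with -0.81 next. The EN2 first intron sum had a log2 fold of 1.69 in SUM-159PT and of 0.84 in the next line.

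The SIPA1L3 peak had a log2 fold of -2.92 in HCC1395, with -0.91 next. Without the third DMSO library of HCC1395 that fold of SIPA1L3 was -1.17. The RPRD1B peak had -1.94 in HCC1143, with -1.04 next.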

How the results depend on the processing

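The direction was kept in each alternative run for the named peaks, sums and differences. For the combination across lines, the 3995 calls became 24636 (12790 up, 11846 down) with single libraries as replicates and 24034 (12496 up, 11538 down) with the replicate block added, 2510 (1265 up, 1245 down) with a minimum count of 30 and 912 with a log2 fold of at least 1. They were 2576 to 3268 without 1 replicate and 2015 to 2957 without 1 line. Same-numbered libraries did not deviate together (27 pairs, r between -0.06 and 0.04, none above 0.1). Since libraries of a group differed by less than sampling noise, this could not show whether the numbers mark a pairing. For tazemetostat across 4 lines, the 3122 calls became 1996 with no filter and 1035 with abundance-trended offsets, 2212 to 3403 without 1 replicate and 35 to 2326 without 1 line. For the combination across 4 lines, the 2524 calls became 1792 to 2852 without 1 replicate and 140 to 2169 without 1 line. For gene sums of first intron peaks, combination across lines, the 1420 calls became 2205 with DESeq2 (1075 up, 1130 down), 1101 to 1330 without 1 replicate and 640 to 1166 without 1 line. For the first intron minus promoter response, the 329 calls became 166 to 264 without 1 replicate and 96 to 260 without 1 line. For baseline levels in DMSO, 78557 peaks were open at 0.5 CPM and 33293 at 2 CPM, in place of 51470. The cause of these moves was not tested.

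Without the third DMSO library of HCC1395 the counts were 4062 for the combination across lines, 1441 for the gene sums of first intron peaks, combination across lines, and 349 for the first intron minus promoter response. Over the alternatives the named peaks kept their call in 453 results and lost it in 71, the sums kept it in 304, lost it in 143 and gained it in 2, and the differences kept it in 111 and lost it in 17. With 1 sample a line, changes present in a single line could not be tested, and peaks below the filter, more than the tested ones in number, were not assessed.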
